A study of Mus musculus with 4 samples.

Results

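Ribosomal proteins were described in RNA from area CA1 of the mouse hippocampus, the field whose pyramidal neurons give the main output of the hippocampus. Members were all probe sets other than array controls with exactly 1 annotated gene symbol that begins with Rpl or Rps and a digit, or with Rplp, Mrpl or Mrps, or that is Rpsa. The S6 kinase genes, whose symbols begin with Rps6k, were left out. The rule used names only and no measured value. It gave 125 of the 12422 probe sets that are not controls, for 96 genes. By symbol they fell into 4 classes, which are 22 probe sets (17 genes) of the large and 27 (18 genes) of the small cytosolic subunit, and 51 (40 genes) of the large and 25 (21 genes) of the small mitochondrial subunit. The class follows the symbol alone, and Mrps18a and Mrps36 do not belong to the small mitochondrial subunit, as described further on.

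Total RNA of 4 samples was measured on 1 expression array each, all from young male C57BL/6J mice (an inbred strain) that had been handled and given nothing else. They were the controls of an experiment with shocked mice, and their RNA was taken at 1, 2, 4 and 6 hours after the last shock of those mice, with 1 sample at each time. No shocked sample was analysed here, and it is not stated in the labels if RNA of several mice was pooled. P-values therefore measure only the spread between these 4 samples, and the number of arrays limits the precision.

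A ribosome is built from ribosomal RNA and ribosomal proteins, and its small subunit decodes the mRNA while its large subunit forms the peptide bond. Cytosolic ribosomes translate nearly all cellular mRNAs, and in neurons some of them work in dendrites close to synapses. Mitochondrial ribosomes have their own protein set, encoded in the nucleus and imported, and translate the few respiratory chain subunits encoded by mitochondrial DNA. The mRNAs of cytosolic ribosomal proteins in vertebrates are known to begin with a cytosine and a run of pyrimidines, the terminal oligopyrimidine tract, through which the mTOR pathway controls their translation.

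That tract lies at the transcript start, so the start sequences are shown for genes whose values are described further on. Each line gives 30 bases before and 20 bases from the annotated start, 5′ to 3′ on the strand of the gene, from RefSeq on GRCm38.p6. Capitals mark the longest run of C and T counted from a C within 5 bases of the annotated start. Pyrimidines before that C are left in lower case, even where they continue the run, as in Rpl7a. The first 6 genes are cytosolic with a run of 8 or more, the next 2 are cytosolic with a short run, and the last 4 are mitochondrial.
Rpl13a, large cytosolic, chr7:45128726-45128775, minus strand: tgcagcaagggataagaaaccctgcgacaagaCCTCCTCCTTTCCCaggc
Rpl7a, large cytosolic, chr2:26910777-26910826, plus strand: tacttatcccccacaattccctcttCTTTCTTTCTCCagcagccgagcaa
Rps10, small cytosolic, chr17:27635225-27635274, minus strand: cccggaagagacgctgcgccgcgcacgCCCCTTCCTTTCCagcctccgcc
Rps18, small cytosolic, chr17:33955646-33955695, minus strand: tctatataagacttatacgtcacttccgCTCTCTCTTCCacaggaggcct
Rps24, small cytosolic, chr14:24490648-24490697, plus strand: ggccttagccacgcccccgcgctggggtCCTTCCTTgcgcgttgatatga
Rps27, small cytosolic, chr3:90213629-90213678, minus strand: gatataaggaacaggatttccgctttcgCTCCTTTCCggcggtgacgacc
Rplp0, large cytosolic, chr5:115559437-115559486, plus strand: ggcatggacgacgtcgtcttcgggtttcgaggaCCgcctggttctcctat
Rps28, small cytosolic, chr17:33824543-33824592, minus strand: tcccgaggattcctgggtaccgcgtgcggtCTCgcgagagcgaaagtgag
Mrpl3, large mitochondrial, chr9:105053238-105053287, plus strand: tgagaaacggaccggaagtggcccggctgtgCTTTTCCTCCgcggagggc
Mrpl45, large mitochondrial, chr11:97315686-97315735, plus strand: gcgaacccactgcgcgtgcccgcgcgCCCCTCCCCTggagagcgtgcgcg
Mrps25, small mitochondrial, chr6:92184004-92184053, minus strand: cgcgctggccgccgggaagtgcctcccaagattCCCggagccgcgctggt
Mrps17, small mitochondrial, chr5:129715467-129715516, plus strand: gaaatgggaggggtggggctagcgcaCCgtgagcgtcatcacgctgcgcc

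Start sequences were at hand for 82 of the 96 genes, 28 cytosolic and 54 mitochondrial. A run of 8 or more pyrimidines lay at an annotated start of 8 of the 28 cytosolic genes (28.6%) and of 2 of the 54 mitochondrial genes (3.7%), against 5.16% of 17492 protein-coding genes. A run of 5 or more was found in 39.3% of the cytosolic and 27.8% of the mitochondrial genes, against 21.5% of protein-coding genes. The 2 mitochondrial genes with a long run were Mrpl3 and Mrpl45. The longest run counted in this way, 14 bases, belonged to Rpl13a. Pyrimidines further upstream, as those that lengthen the stretch in Rpl7a, are not in these lengths. An annotated start can lie a few bases from the start used in the cell, so a short run in these windows, as in Rps28 and Rplp0, says only that these letters are not at the annotated place. A gene with several annotated starts was counted if any of them held the run.

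In the 300 bases around the start, searched on both strands, the core of the ETS family motif (CCGGAAG), bound by factors such as GABP that are known for nuclear genes of mitochondrial proteins, was found in 12 of 28 cytosolic genes (42.9%) and in 19 of 54 mitochondrial genes (35.2%), against 12.9% of protein-coding genes. The ETS core read on the opposite strand begins with 5 pyrimidines, so it can overlap a short run. The ETS core was more frequent than among protein-coding genes in both ribosomes, and the long run in the cytosolic set, as a description of sequence with no test.

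**Figure D1:**
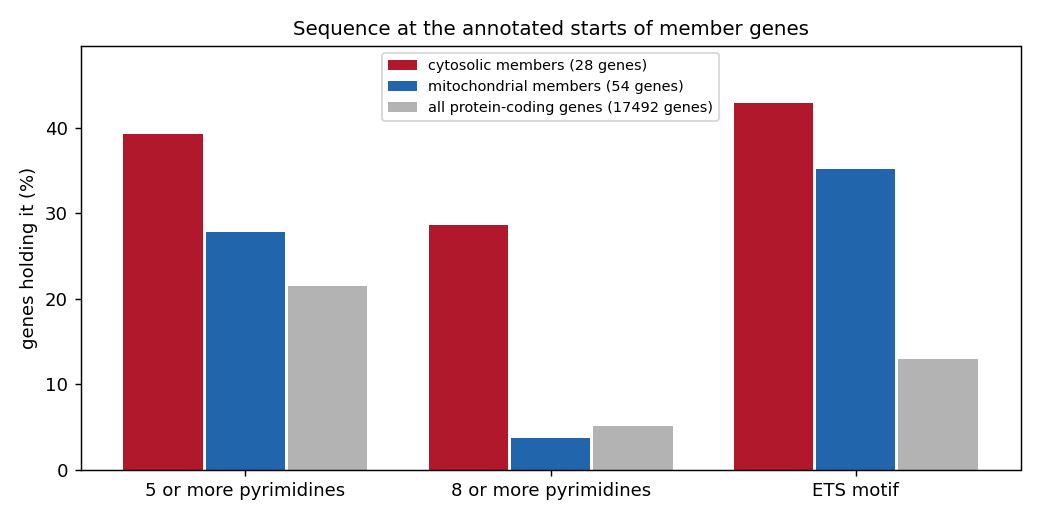
Share of genes (%) that hold a pyrimidine run at an annotated start or a motif in the 300 bases around it, for cytosolic members, mitochondrial members and all protein-coding genes. The run of 8 or more is at 28.6% in cytosolic members, 3.7% in mitochondrial members and 5.16% in all protein-coding genes.

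The 1-hour sample stood apart from the others in the state of its RNA. Its ratio of 3′ to 5′ signal of the Gapdh control probe sets was 4.52, against 1.18, 1.37 and 1.20 in the 2-, 4- and 6-hour samples, and that of beta-actin was 2.34, against 2.00, 1.80 and 1.76. Its 9 bacterial and phage control probe sets lay 0.49 ± 0.14 log2 units above the other samples (SD over probe sets). The summed signal of choroid plexus genes was also high in it. It was 2623 over the 3 of 5 listed genes on the array, against 429 to 570 in the other samples, none of the 3 at 0. Most of that sum came from Ttr, with 2246, 199, 353 and 143 at 1, 2, 4 and 6 hours. Kl had 263, 175, 172 and 252, and Folr1, outside the test, had 113, 55.9, 44.7 and 41.1. The 3 CA1 pyramidal markers on the array did not share a direction in the 1-hour sample. Their differences were -0.01 for Wfs1, -0.36 for Pou3f1 and 0.62 for Man1a. The 6 general neuron markers had a median difference of -0.61 in the 1-hour sample, with 2 of 6 higher (54.7% of all tested probe sets were). Their summed signal was 25646 in it, against 26047 to 28749.5 in the others. Medians of other tested markers in the 1-hour sample were 0.17 for astrocytes (3 of 4 higher) and -0.10 for oligodendrocytes (2 of 4). They were -0.27 for microglia (2 of 5), 0.34 for endothelium (3 of 5) and 0.21 for blood (2 of 2). Dsp, the only tested dentate granule marker, was at -0.41. The part of RNA state and tissue makeup in any result below was not tested. In bulk tissue, fewer cells of a type and less RNA per cell cannot be told apart. For the trends and the counts of wide ranges, values without this sample are given as well.

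Signals are the deposited intensities, scaled by the authors to a common mean. Log2 differences were computed after quantile normalization, which gives all arrays the same distribution, and each is 1 sample minus the mean of the 3 others. Of the 125 members, 96 (76.8%, for 82 genes) passed a filter on low mean values and were tested, against 60.0% of all probe sets. They were 32 of 49 cytosolic (65.3%) and 64 of 76 mitochondrial probe sets (84.2%). By class 14 large and 18 small cytosolic and 40 large and 24 small mitochondrial probe sets were tested. Cytosolic ribosomal proteins have many processed pseudogenes in mammals and close paralogues, and 26 members carry a suffix that marks shared sequence or relaxed probe selection, so their signals can include related transcripts.

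No member passed the test for a time trend. With time as a linear term in limma, 0 of 96 members and 0 of 7453 probe sets (0.0%) had an adjusted p under 0.05, and the smallest adjusted p of a member was 0.74, and between 0.14 and 1.0 in 11 alternative settings. Without adjustment 6 of 96 members (6.25%) were under 0.05, against 6.24% of all tested probe sets, and without the 1-hour sample 2 of 96 were (2.08%), against 3.21%. The coefficient was negative for 63 of 96 members (65.6%), against 52.8%.

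Of the small cytosolic subunit, Rps13, which has a bacterial counterpart, had the steepest negative coefficient among those 6. Its signals were 464, 358, 290.3 and 191 at 1, 2, 4 and 6 hours. They were in falling order, with the 1-hour sample highest. The fitted log2 change from 1 to 6 hours was -1.24 ± 0.32 (SE), and -1.10 without the 1-hour sample.

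Of the mitochondrial subunits, 5 further members were under 0.05 without adjustment. Mrps25, of the small subunit, had signals of 598, 505, 314 and 319.5, with 2 high and 2 low samples. Mrps15, the counterpart of a bacterial small-subunit protein, had 459, 354, 293 and 255, in falling order. Mrpl23, which lies near the exit of the peptide tunnel, had 1862.5, 1358, 1268 and 1042, and its 1-hour value was the highest. Mrpl51, found in mitochondrial but not in bacterial ribosomes, had 2014, 1693, 1429 and 1391, again highest at 1 hour. Mrps34, a small-subunit protein whose human gene is mutated in Leigh syndrome, went the other way with 915, 1422, 1787 and 1818, lowest at 1 hour. The fitted changes were -0.99 ± 0.31 (SE) for Mrps25, -0.83 ± 0.32 (SE) for Mrps15, -0.73 ± 0.24 (SE) for Mrpl23, -0.53 ± 0.22 (SE) for Mrpl51 and 0.88 ± 0.28 (SE) for Mrps34. Without the 1-hour sample they were -0.80 for Mrps25, -0.57 for Mrps15, -0.49 for Mrpl23, -0.39 for Mrpl51 and 0.45 for Mrps34. All 5, and Rps13, had an adjusted p of 0.74 in limma. In 4 of these 5, and in Rps13, the 1-hour sample was the highest.

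The others among the 6 members with the smallest p in each direction of trend were also not called. Mrpl50 had signals of 285, 200.3, 151 and 151, and its coefficient was -0.87 ± 0.44 (SE). Rps28, on 1 of its 3 probe sets, had 1.41 ± 0.61 (SE). The coefficients of Mrpl39, Rps4l, Mrpl4 and Mrpl38 were positive, at 0.60 ± 0.32 (SE), 0.32 ± 0.25 (SE), 0.33 ± 0.27 (SE) and 0.26 ± 0.22 (SE). Without the 1-hour sample the coefficients were -0.46 for Mrpl50, 0.11 for Rps28, 0.23 for Mrpl39, 0.16 for Rps4l, -0.0013 for Mrpl4 and 0.21 for Mrpl38. Of the 12 named coefficients, 6 were thus over 1.5 times smaller in size without that sample. Without the 6-hour sample 9 of the 12 were over 1.5 times larger in size. The 12 then ran from -1.58 for Mrps25 to 2.38 for Rps28. All coefficients stay scaled to 1 to 6 hours, so these extend a line fitted at 1, 2 and 4 hours to 6 hours. They can exceed what was measured, as for Rps28, whose range over the 4 samples was 1.86. Those without the 1-hour sample likewise extend a line fitted at 2, 4 and 6 hours back to 1 hour.

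**Figure D2:**
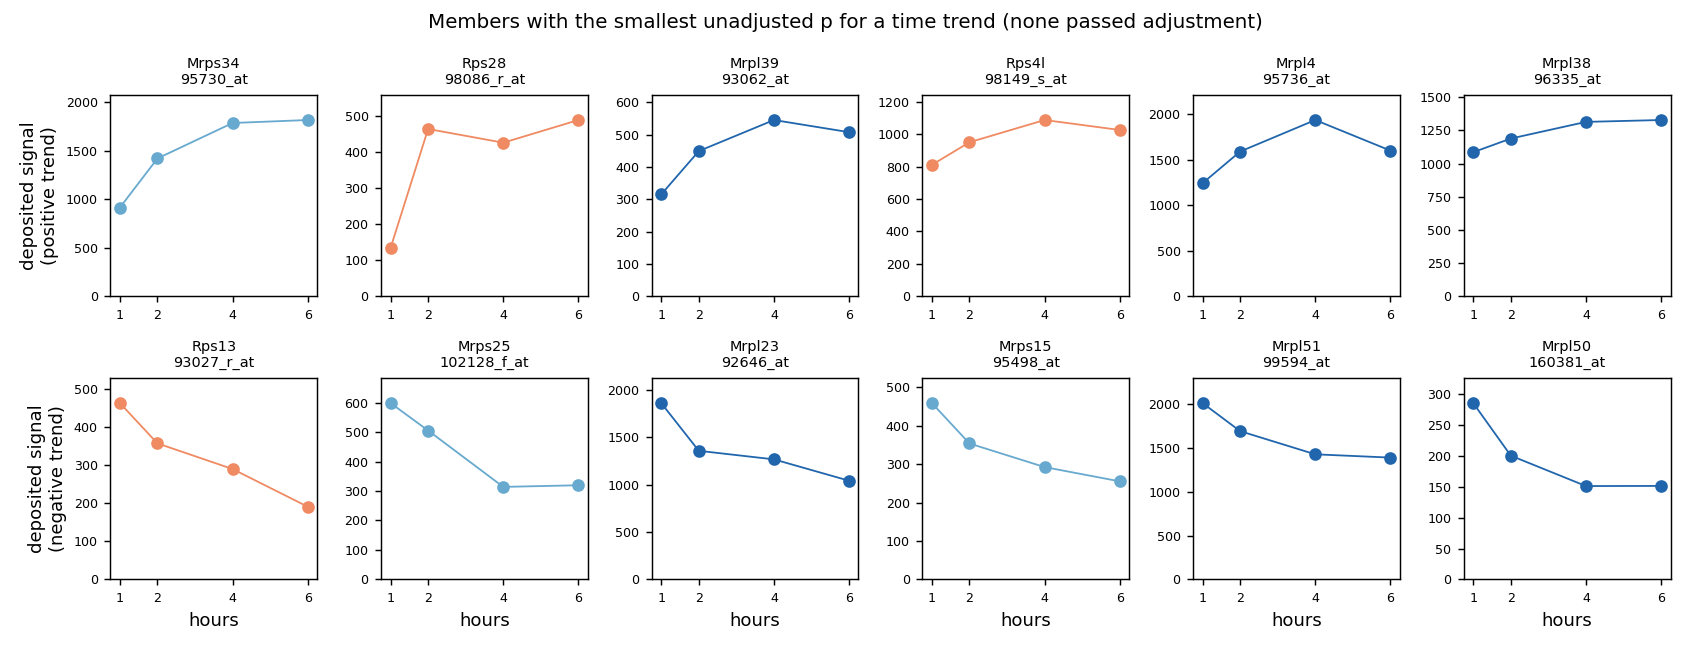
Deposited signal (linear axis from 0) at 1, 2, 4 and 6 hours for the 6 members with the smallest p for a positive and the 6 for a negative trend, 1 sample a point. None passed after adjustment, and Rps13 has 464, 358, 290.3 and 191 at the 4 times.

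The 1-hour sample held the most members at their highest value. It was the highest of the 4 for 48 of 96 members, against 35.1% of all tested probe sets. The 2-hour sample was highest for 17 (17.7%), against 21.0%, the 4-hour sample for 21 (21.9%), against 23.1%, and the 6-hour sample for 10 (10.4%), against 20.8%. The median difference of the members in the 1-hour sample was 0.13, with 60 of 96 above the mean of the other 3 (62.5%), against 0.05 and 54.7% over all tested probe sets. In the 2-, 4- and 6-hour samples, 46.9%, 49.0% and 41.7% of members lay above the mean of the others, against 51.5%, 50.8% and 50.0% of all tested probe sets. Among those 3 samples alone, the medians of the members were 0.00, 0.04 and -0.01.

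The shift was small next to a fold change of 2. No tested member was 2-fold or more above the other 3 in the 1-hour sample, against 1.78% of all tested probe sets, and 1 was 2-fold or more below, Rps28 on 1 probe set, against 4.56%. Between pairs of samples, 3, 4 and 2 of 96 members were 2-fold or more apart for the 1-hour sample against the 2-, 4- and 6-hour samples, where all tested probe sets gave 8.1%, 8.21% and 8.75%. Between the 2- and 4-hour, the 2- and 6-hour and the 4- and 6-hour samples, 2, 1 and 3 members were, against 4.92%, 4.01% and 4.76%. None of these counts was matched for brightness. Of the 96 members, 37 were among the brightest 25% of tested probe sets and 8 among the dimmest 25%.

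**Figure D3:**
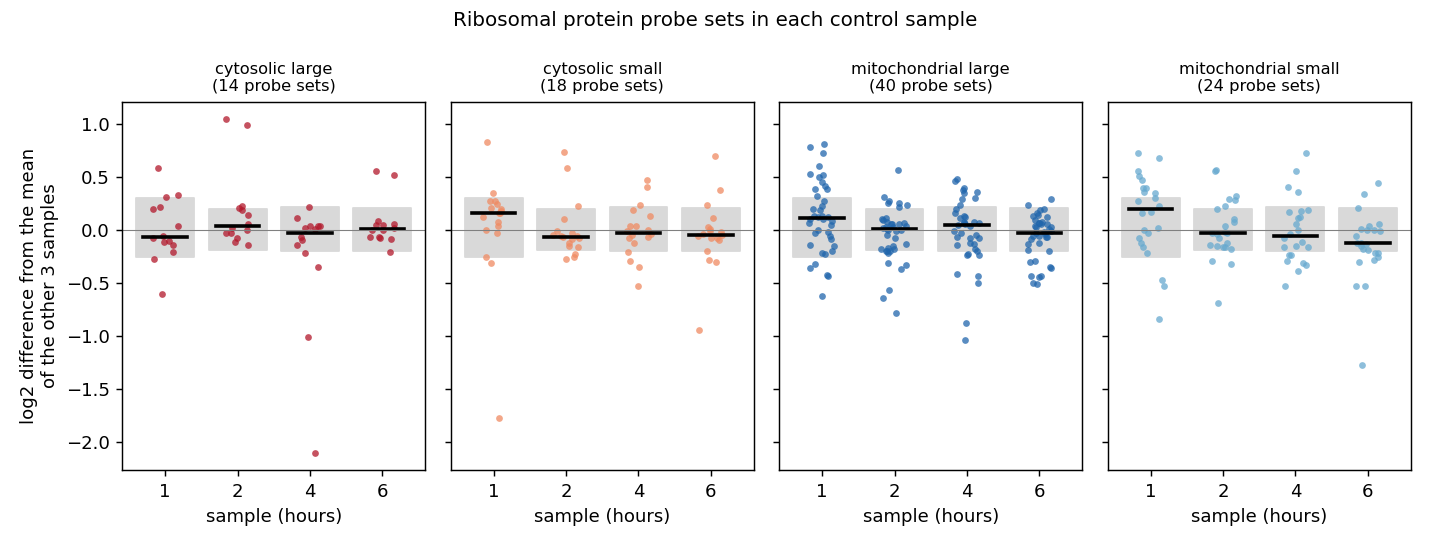
Log2 difference of each tested member from the mean of the other 3 samples, by class and by sample (hours), 1 point a probe set. Black lines are class medians and grey boxes span the middle 50% of all tested probe sets; the 1-hour median of the small cytosolic class is 0.16 and that of the small mitochondrial class 0.20.

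By class the median difference in the 1-hour sample was 0.16 for the small cytosolic (13 of 18 higher), -0.06 for the large cytosolic (6 of 14 higher), 0.11 for the large mitochondrial (26 of 40 higher) and 0.20 for the small mitochondrial members (15 of 24 higher). The small mitochondrial class, set by symbol, includes 4 probe sets of Mrps18a, a protein of the large subunit. It also includes Mrps36, now placed outside the ribosome. The sign of the large cytosolic class depended on the scaling, since it was 0.09 with the values as deposited and 0.13 with arrays scaled to equal medians. Over all cytosolic members the median was 0.10, against 0.23 as deposited and 0.26 at equal medians. After quantile normalization 19 of 32 were higher (59.4%), against 54.7% of all tested probe sets. As deposited 23 of 32 were (71.9%), against 52.7%.

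Bright members of the small cytosolic subunit all lay on the same side in the 1-hour sample. Among the brightest 25% of all tested probe sets, a split added after the values were seen, all 11 small cytosolic members were above the mean of the other 3 in the 1-hour sample, against 55.5% of all those bright probe sets (57.3% as deposited). The 1-hour sample was the highest of the 4 for 10 of the 11 (11 of 11 as deposited), against 39.5% (42.4% as deposited). Their median difference was 0.20, and 0.41 as deposited. Bright large cytosolic members, 10 probe sets, had a median of -0.06 with 4 higher, and of 0.09 with 8 higher as deposited. The 16 bright mitochondrial members had a median of 0.35, and 0.36 as deposited, against 0.05 and 0.07 for all bright probe sets. Of them 12 of 16 were above the mean of the other 3, and the 1-hour sample was the highest for 11 of 16 (68.8%), so their median was larger than that of the small cytosolic members after quantile normalization and their direction less uniform. No test of these groups was made.

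**Figure D4:**
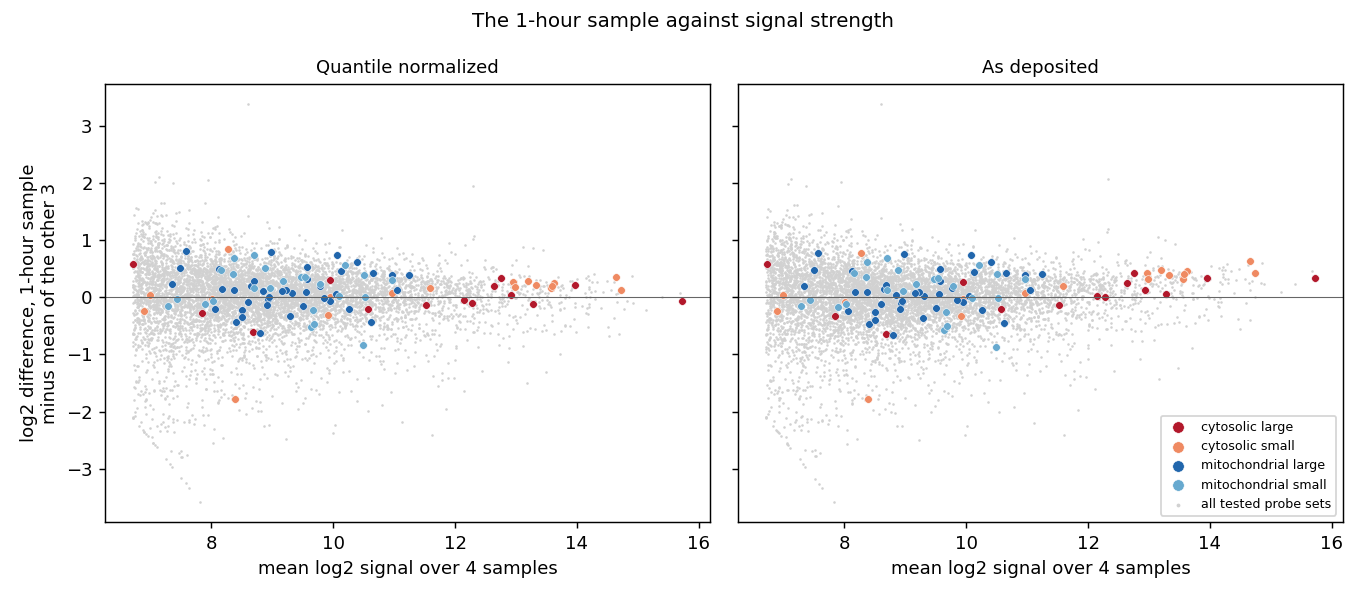
Log2 difference of the 1-hour sample from the mean of the other 3 (vertical) against the mean log2 signal (horizontal), after quantile normalization (left) and as deposited (right), 1 point a tested probe set, with members coloured by class. The 11 bright members of the small cytosolic class lie above 0 in both panels.

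Within the small cytosolic subunit, Rps24, which is needed to process the precursor of the small-subunit RNA, had the largest of these differences. On its bright probe set the signals were 35731, 23927, 22328 and 23291 at 1, 2, 4 and 6 hours. The 1-hour value stood above 3 close ones, with a difference of 0.35 (SD of the other 3, 0.12). This probe set and 1 of Rpl7 were drawn from the same sequence record, so they do not count as separate evidence. Which of the 2 genes that record measures is therefore less certain. The other tested probe set of Rps24, a dim one, had 130, 116, 154 and 113, highest at 4 hours. Its 1-hour difference was 0.04 (SD of the other 3, 0.28).

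Rps10, of the head of the subunit, had 11987, 8218, 9951 and 7849, and a difference of 0.28 (SD of the other 3, 0.16). Rps3, which lines the channel where mRNA enters, had 9977, 7016, 6642 and 8696, and a difference of 0.27 (SD of the other 3, 0.22). The other 3 samples were less even here, with the 4-hour value of Rps10 and the 6-hour value of Rps3 above the remaining ones.

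Rps18, also in the head, had 14280.2, 11148.5, 11747 and 11321, with 3 close values under the 1-hour one and a difference of 0.16 (SD of the other 3, 0.02). Rps3a1 had 15121, 11322, 11777 and 11117, and a difference of 0.20 (SD of the other 3, 0.02). Rps7 had 12513, 8931, 10251 and 9714, and a difference of 0.21 (SD of the other 3, 0.06). In these 3 the 1-hour value was above the other samples by several times their SD, which is a description and no test.

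Rps4x, the X-linked member of the Rps4 pair known in humans, had 9590.2, 8124, 7421 and 7604 on its bright probe set, and a difference of 0.18 (SD of the other 3, 0.12). Rpsa, also known as the laminin receptor precursor, had 3407, 2935, 3381 and 2612, and its 1- and 4-hour values were close. Rps19, mutated in Diamond-Blackfan anaemia in humans, had 2083, 1885, 2066 and 1973, and its 1- and 4-hour values were likewise close. Rps27, a zinc-binding protein, had 974, 994, 1015 and 987, with a range of 0.05 log2 units, the smallest among tested cytosolic members. It also has 9 pyrimidines at its annotated start, as printed above, and its 1-hour value differed little from the others.

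Within the large cytosolic subunit the picture was mixed. Rpl41, a very short peptide, had 64528, 50759, 50757 and 52059. As deposited its 1-hour value was the highest, while after quantile normalization the other 3 samples were identical and the 1-hour sample lay at -0.07, so its direction depends on the scaling. Rpl19, which reaches across to the small subunit, had 18831, 14945.5, 14629 and 15445 on its bright probe set, and a difference of 0.22 (SD of the other 3, 0.05).

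Rpl7 had 8627, 6613, 6121 and 6586, and a difference of 0.33 (SD of the other 3, 0.07). Rpl6 had 7251, 6656, 5336 and 6380.3, where the 4-hour value was the low one and the difference of the 1-hour sample was 0.20 (SD of the other 3, 0.19). Rpl13a, known in humans for silencing inflammatory mRNAs once released from the ribosome, had 1137, 942, 990.3 and 895, and a difference of 0.31 (SD of the other 3, 0.08). These 3 were highest at 1 hour.

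Other large-subunit proteins did not stand out at 1 hour in this way. Rpl10a, of the stalk next to the exit site, had 2727, 2965, 3028 and 3007, lowest at 1 hour. Rpl8, which lies by the peptidyl transferase centre, had 10194, 9160.0, 11177 and 9346, highest at 4 hours. Rpl7a had 4952, 5382.5, 4794 and 4663 and Rpl37a 4583, 4934, 4325 and 4346, both highest at 2 hours. Rplp0, the base of the stalk that recruits elongation factors and a common reference gene for quantitative PCR, had 8338, 6937, 8142.5 and 7824, with the 2-hour value apart from 3 closer ones and a range of 0.15. Its highest value was at 1 hour as deposited and at 6 hours after quantile normalization, with 12.97 log2 units, against 12.96 at 1 hour.

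The widest ranges in the large cytosolic subunit were those of 2 dim probe sets, 1 of Rpl7l1 and 1 of Rpl22. Rpl7l1, a paralogue of Rpl7, had 143, 182, 21.5 and 137, with the 4-hour value under the floor of 35.1 set for low signals. Its range of 2.33 log2 units, the widest among tested members, is therefore bounded by that floor. Rpl22, which in mice is needed for the development of some T cells, had 293, 715, 240.1 and 559 on 1 probe set, with 2 high and 2 low samples that do not follow time, and 194, 259, 231 and 236.5 on the other.

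Within the large mitochondrial subunit, Mrpl13, which has a bacterial counterpart, had 748, 341, 455 and 568, highest at 1 hour and lowest at 2 hours, with a difference of 0.78 (SD of the other 3, 0.37). Mrpl45, which anchors the ribosome to the inner membrane, had 1576, 1228, 627 and 1113 on 1 probe set and 983, 636, 678 and 791 on the other. Both were highest at 1 hour, with differences of 0.73 (SD of the other 3, 0.52) and 0.53 (SD of the other 3, 0.16).

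Mrpl27, whose bacterial counterpart lies by the peptidyl transferase centre, had 2442, 1754, 1886 and 1963.5, and a difference of 0.39 (SD of the other 3, 0.07). Mrpl43, found in mitochondrial but not in bacterial ribosomes, had 1406, 1053, 1195 and 900.3, and a difference of 0.46 (SD of the other 3, 0.21). Mrpl33 had 354, 320.4, 175 and 307, where the 4-hour value was the low one. All 3 were highest at 1 hour.

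Lower at 1 hour were Mrpl39, with 315, 449, 545 and 508 and a difference of -0.63 (SD of the other 3, 0.16), and Mrpl4, whose bacterial counterpart lines the peptide tunnel, with 1240.3, 1587.5, 1933 and 1598 and -0.43 (SD of the other 3, 0.15). Mrpl44, which resembles ribonuclease III, had 295, 386.5, 399 and 382, and 3 close values above the 1-hour one. Mrpl11, at the base of the factor-binding stalk, had 265, 465.5, 341 and 311, with its 2-hour value high. The 1-hour sample was thus the lowest in all 4 of these, and it was the lowest for 9 of the 40 tested large mitochondrial probe sets (22.5%), against 29.2% of all tested probe sets.

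Steady members of this subunit were Mrpl16, with 466, 507.5, 471 and 515 and a range of 0.11, and Mrpl28, with 949, 1037, 1031 and 954 and a range of 0.12. Mrpl12, which binds the translation factors and has also been described as a partner of the mitochondrial RNA polymerase, had 647, 592, 658 and 655, with the 2-hour value low. Mrpl3, the other mitochondrial gene with a long pyrimidine run, had 657, 661, 847.5 and 752, highest at 4 hours. Mrpl58, a peptidyl-tRNA hydrolase that became part of the ribosome, had 462, 410.0, 373 and 407.

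Within the small mitochondrial subunit the widest range was that of Mrps16, whose human gene is mutated in a respiratory chain disorder, with 167, 238, 250.3 and 88.4. The 6-hour value was the low one. Mrps36 had 1584, 1097, 1084 and 1037, highest at 1 hour with a difference of 0.56 (SD of the other 3, 0.04), and is now known as a subunit of the oxoglutarate dehydrogenase complex and not of the ribosome.

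Mrps14 and Mrps21 both have bacterial counterparts. Mrps14 had 1797, 1356, 1253 and 1492, and a difference of 0.39 (SD of the other 3, 0.12). Mrps21 had 2361.5, 1942, 1777 and 1949.6, and a difference of 0.31 (SD of the other 3, 0.09). Mrps33, found in mitochondrial but not in bacterial ribosomes, had 878, 686, 708 and 704, and a difference of 0.36 (SD of the other 3, 0.03). In all 3 the 1-hour value lay above the other 3 samples.

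Mrps7, the counterpart of a bacterial protein that organises the head of the subunit, had 603, 335, 462 and 532.5, with its 2-hour value low. Mrps12, of the decoding centre, had 1456, 1337, 1771.5 and 1343.5, highest at 4 hours with 3 closer values. Mrps17, the counterpart of a bacterial protein that binds the ribosomal RNA early in assembly, had 1089, 1082, 1105 and 1111, with a range of 0.05, the smallest of all tested members. Mrps26 had 530.1, 504, 463 and 507, a range of 0.23.

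Spread between samples was lower for the members, by its median, than over all tested probe sets. Members had a median SD of 0.19 log2 units over the 4 samples (0.15 cytosolic, 0.22 mitochondrial), against 0.25 for all tested probe sets. A range of 1 log2 unit or more was found for 8 of 96 members (8.33%), against 17.9%. Without the 1-hour sample it was found for 3 (3.12%), against 9.06%, and without the 4-hour sample for 5 (5.21%), against 13.2%. These counts were not matched for brightness, and wide ranges were more common among dim probe sets. The tested probe sets were therefore also split by mean signal into 4 parts of 25%. From dimmest to brightest, 2 of 8, 4 of 23, 1 of 28 and 1 of 37 members had such a range over the 4 samples. All tested probe sets gave 41.2%, 16.5%, 8.59% and 5.1%, so members were not lower in every part. Among bright probe sets, where spread is smaller for all genes, the median SD was 0.12 for cytosolic and 0.22 for mitochondrial members, against 0.18 for all bright probe sets. As deposited these were 0.17, 0.23 and 0.18, so bright cytosolic members stood below them mainly after quantile normalization, and bright mitochondrial members did not stand below them. The 8 wide members were Rpl7l1, Rpl22, Rps28, Rps13, Mrps16, Mrpl45, Mrpl13 and Mrpl33, each on 1 probe set.

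A single sample stood apart from the other 3 by Dixon's ratio in 13 of 96 members (13.5%), against 6.75% of all tested probe sets. It was the 1-hour sample in 6, the 2-hour in 5, the 4-hour in 2 and the 6-hour in 0, where all tested probe sets gave 3.39%, 1.14%, 1.15% and 1.06%. Of the 13, 8 were among the 32 cytosolic and 5 among the 64 mitochondrial members. Several of them had narrow ranges, such as Rpl10a at 0.15 log2 units and Rplp0 at 0.15, so a high ratio here need not be a large change.

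Different probe sets of a gene did not always run together. Of 22 genes with several probe sets, 11 had 2 or more that were tested. In the 1-hour sample their differences had the same sign for 7 genes and opposite signs for 4, which were Rps28, Mrps18a, Mrps25 and Mrpl18.

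Rps28, which sits where mRNA leaves the small subunit, showed the widest gap. Its bright probe sets had 34048.5, 24267, 26365 and 25847 and 15912, 10579.9, 12031 and 12297 at 1, 2, 4 and 6 hours, both highest at 1 hour. A dim probe set, drawn from the same sequence record as the first of these, had 134, 463, 425 and 488. Its 1-hour value was far under 3 close ones, with a difference of -1.78 (SD of the other 3, 0.09). It is the single tested member 2-fold or more away from the other samples at 1 hour. The 3′ to 5′ ratios given above were also highest in this sample, and their part in the Rps28 values was not tested.

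Mrps18a, found in the large mitochondrial subunit despite its name, had 4 tested probe sets. Its signals were 843, 689.7, 594.5 and 746.5 on the first and 656, 545, 634 and 504 on the second, both highest at 1 hour. They were 632, 965, 903 and 822 and 592, 1068.5, 871 and 723 on its other probe sets, where the 1-hour sample was lowest. The 2 pairs thus gave opposite directions for the same gene.

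The signals of Mrps25 given above come from 1 probe set, and on its other probe set it had 244, 300.0, 277 and 227, with no order in time. Mrpl18, which in humans helps to bring 5S ribosomal RNA into mitochondria, had 2979, 2001, 2404 and 2396 on 1 probe set, highest at 1 hour. On the other, drawn from the same sequence record, it had 435, 493, 619 and 408, highest at 4 hours. For Mrps25 and Mrpl18 the sign of the 1-hour difference was not shared by both probe sets, while the trend coefficient of Mrps25 was negative on both, at -0.99 and -0.20.

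**Figure D5:**
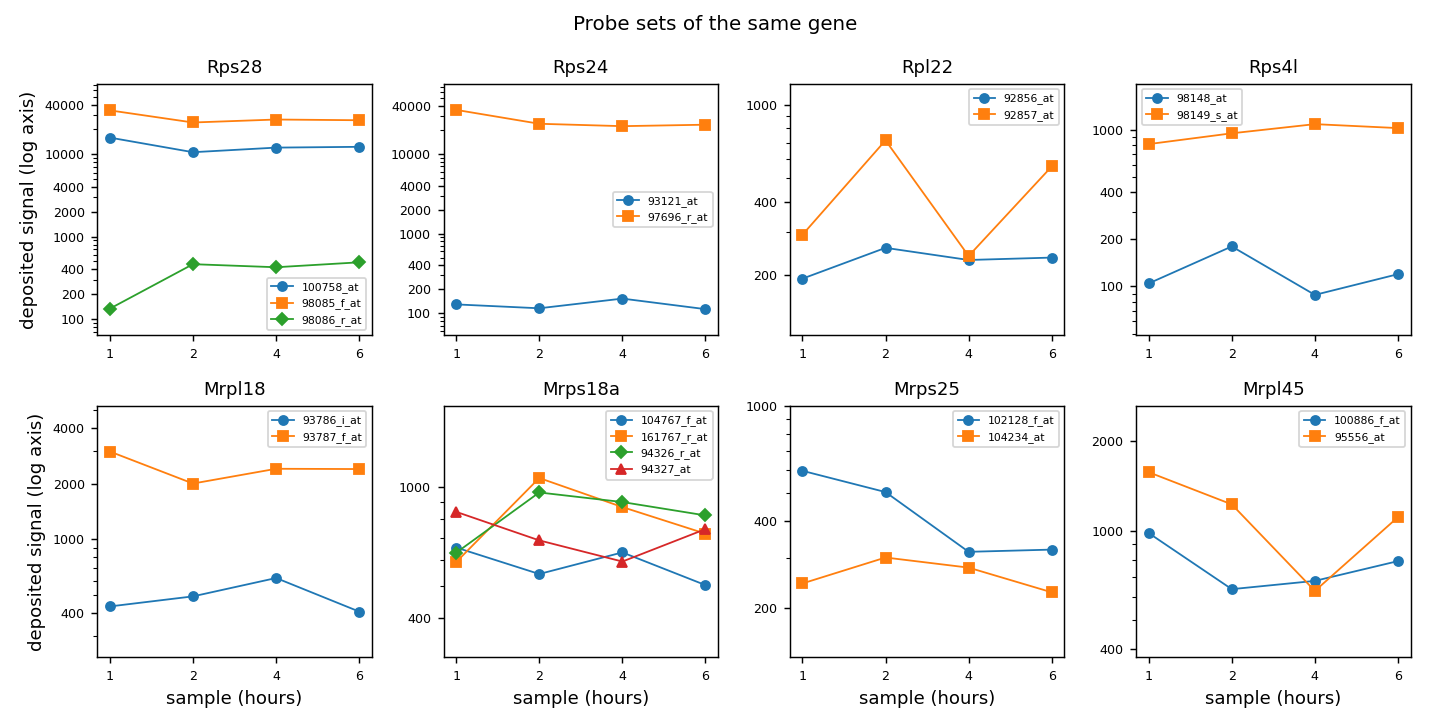
Deposited signal (log axis) in the 4 samples (hours) for each tested probe set of 8 genes, picked after their values were seen. The dim probe set of Rps28 is at 134 at 1 hour and at 425 to 488 later, while its other 2 probe sets are highest at 1 hour.

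The 29 members outside the test were dim on this array, and 6 of them were at or under the floor in all 4 samples. They include the only probe sets of Rps14, part of the platform of the small subunit and lost in the human 5q- syndrome, with 85.1, 88.8, 56.1 and 15.6, and of Rps20, with 82.0, 40.5, 21.4 and 16.4. Rps15 had 60.3, 16.4, 28.2 and 38.2 and Rps27l, a paralogue of Rps27, had 23.4, 26.9, 33.5 and 24.5. Such signals under or near the floor carry no order between samples.

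Also dim were the only probe sets of Rpl32, Rpl35a, Rpl39 and its paralogue Rpl39l, and both of Rpl38, a protein known in mouse embryos for its part in the translation of Hox mRNAs. Rpl39 had 10.9, 57.7, 10.2 and 54.5. The 4 other probe sets of Rps4x also failed the filter, although 1 passed it, so failing describes the probe set and not the gene. In all, 14 of the 96 genes had no tested probe set, 9 cytosolic and 5 mitochondrial. A further 44 probe sets list a ribosomal symbol beside others and are not members, and Rps6, the substrate of the S6 kinases, was among 8 of 22 preset genes with no member probe set.

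Genes of related pathways gave no called trend either. Of 17 listed mRNAs with a terminal oligopyrimidine tract that encode no ribosomal protein, 14 were tested, with a 1-hour median of 0.14 and 8 higher. Over all tested probe sets 54.7% were higher in the 1-hour sample. Within that list Eef2, the translocation factor, had 1932, 4869.8, 5577 and 4797, lowest at 1 hour, and Eef1a1, which brings aminoacyl-tRNA to the ribosome, had 13066, 24234, 9730.3 and 21875, with 2 high and 2 low samples. Both were picked after their values were seen. The 1-hour sample was the highest for 6 of the 14 tested, against 35.1% of all tested probe sets. These 6 were Tpt1, Pabpc1, Eif3f, Npm1, Naca and Gas5.

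Of 45 ribosome biogenesis genes, 40 were tested, with a median of 0.04 and 21 higher, and 0 passed the trend test. Of 22 mitochondrial translation genes 7 were tested, with a median of -0.11 and 3 higher. Of 16 genes of the mTOR and S6 kinase pathway 7 were tested, with a median of -0.20 and 0 higher. Beside these counts, 54.7% of all tested probe sets were higher in the 1-hour sample. Of 11 ribosome genes without the prefix, 2 were tested, Dap3 and Ptcd3, both of the small mitochondrial subunit. Dap3 had 349.6, 487, 419 and 511, lowest at 1 hour, and Ptcd3 had 633, 487, 433 and 382, highest at 1 hour.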

How the data were processed

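RNA from CA1 of handled control mice was measured on 4 single-colour arrays, 1 each at 1, 2, 4 and 6 hours, which form 1 group. The values are intensities on a linear scale deposited by the authors. Trimmed of 2% at both ends, each column had a mean of 500.3, so the authors had scaled the arrays to a common level; scanner software and labelling are given nowhere in the sources used here. The members and gene lists were chosen with earlier results of these data known.

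From the deposited intensities, arrays were quantile normalized, signals below the 20th percentile (35.1) were raised to it, and log2 was taken. Probe sets at or above the 40th percentile of mean log2, 7453 of 12422, were tested with limma 3.58.1 in R 4.3.3 (lmFit, eBayes with an intensity trend) for a linear term of time, with 2 residual degrees of freedom, two-sided, with Benjamini-Hochberg adjustment over all of them. The method was tested on simulated data. The 66 control probe sets stayed out. Single samples were compared without a test. Gene names are those of the array annotation, and all 125 members matched the gene table of GRCm38.p6. Of all probe sets, 10833 had 1 symbol, 396 several and 1193 none.

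Members were listed by rule: the 6 with the smallest p in each trend direction and the 4 widest and 2 narrowest of each class. Also listed were the 4 furthest above and below in each sample, genes with several probe sets, members outside the test, and 22 preset genes. Not all of these are described above. Among those left out are Mrpl14, Mrpl15, Mrpl54, Mrps5 and Rps29, and the text gives Rps4l and Mrpl38 by coefficient only. Other members, of the bright probe sets and of each class, were chosen after their values were seen. Alternatives were another scaling, floor or filter, no floor with a pseudocount of 16, time as rank order, a constant prior and leaving out each sample. Levels of probe sets were used for the filter and to rank them by brightness. No difference in level between probe sets was read as a difference in RNA amount. Start sequences are from RefSeq. Figures used matplotlib 3.10.9.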

Additional observations from a re-analysis of the deposited data

Results flagged for a closer look

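In 13 of 96 tested members (13.5%) 1 sample stood apart from the other 3, against 6.75% of all tested probe sets. Its gap to its nearest neighbour, as a share of the whole range, was above Dixon's critical value for 4 samples. Chance alone gives this in about 1 in 20 groups. The ratio was 0.9072 for Rps28 on its dim probe set, 0.8461 for Rps3a1, 0.8418 for Mrps33, 0.8686 for Mrps36, 0.9015 for Rpl10a and 1.0 for Rpl41, and the 1-hour sample was the one apart. The value for Rpl41 arises because quantile normalization gave the other 3 samples the same value. The ratio was 0.9002 for Rplp0, 0.8912 for Rpl7a, 0.8646 for Rpl37a, 0.8421 for Mrpl12 and 0.8416 for Mrpl48 on 1 probe set, where the 2-hour sample was apart. It was 0.8481 for Rpl7l1 and 0.8572 for Mrpl17, where the 4-hour sample was apart.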

How the results depend on the processing

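The count of members with a called trend was 0 in all 11 alternatives tried, with a smallest adjusted p between 0.14 and 1.0 (limma). Over all probe sets it was 0 in each of them except without replicate 2 (the 2-hour sample), where 5 were called, none of them a member. The coefficient of Mrpl4 turned to -0.0013 without replicate 1 (the 1-hour sample), and the other 131 of 132 values of named trends kept their sign. Without replicate 1, 6 of 12 named coefficients were over 1.5 times smaller in size, as Rps28 at 0.11, against 1.41. Without replicate 4 (the 6-hour sample) 9 were over 1.5 times larger in size. In both cases the line was extended to an hour that it was not fitted to. The number of members with an unadjusted p under 0.05 was 2 without replicate 1, against 6. The 1-hour median of cytosolic members was 0.23 as deposited and 0.26 at equal medians, against 0.10, and their 2-hour median was -0.14 at equal medians, against -0.03. Among the brightest 25% of probe sets, a split added after seeing the data, the cytosolic median was 0.32 and 0.36 under these scalings, against 0.17. The count of members with a range of 1 log2 unit or more was 22 with no filter on low values, against 8, and 3 to 7 when 1 sample was left out. The cause of these shifts was not tested, except that leaving out a sample or the filter changes what is counted or fitted. No paired analysis was possible because the samples form 1 group with 1 sample at each time. With 4 arrays small trends cannot be called, and dim probe sets are bounded by the floor.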
